A study of Canis lupus familiaris with 7 samples.

Results

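The Agilent canine array used for 7 primary osteosarcomas carries 58 probes described as an immunoglobulin heavy or light chain, out of 43603 non-control probes. They were found by the wording of the probe description, and none of the 58 carries the gene name JCHAIN or IGJ. Sorted by the class that the description names, there were 3 gamma, 2 alpha, 5 mu and 1 delta heavy-chain probes, 1 heavy-chain constant-region probe without a named isotype, 26 heavy-chain variable-region probes without a named isotype, 17 lambda and 3 kappa light-chain probes. These chains were selected on their levels in the same 7 tumors, in particular their high signal in deleted tumor 1. Their levels are therefore given as a description, and the group comparisons printed beside them are no independent evidence of a direction.

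Total RNA of each tumor was labeled with Cy3 and hybridized to an array of its own. The labels call 4 tumors DLG2 deleted. Deleted tumor 1 came from a Mixed Breed (German Shepherd/Collie/X) dog of 8 years with the gender label MC, deleted tumor 2 from a Rottweiler X of 9 years (FS), deleted tumor 3 from a Greyhound of 6 years (MC) and deleted tumor 4 from a Great Pyrenees of 7 years (FS). The 3 tumors called DLG2 wild type came from a Boxer of 12 years (FS), a mixed Labrador Retriever/X of 10 years (FS) and a Bull Mastiff of 8 years (MC), numbered wild type 1 to 3. The dogs thus differed in breed and age as well as in DLG2, and each tumor is a different animal. The only probe named DLG2 read 10.35, 11.44, 10.49 and 10.84 in deleted tumors 1 to 4, on the log2 scale of normalized intensity. In wild type tumors 1 to 3 it read 10.91, 12.04 and 11.76, so the groups overlapped there. The labels do not give the extent of each deletion, so whether that probe lies in the lost stretch was not determined.

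An antibody joins a pair of heavy chains to a pair of light chains. The constant region of the heavy chain sets the isotype: mu for IgM, delta for IgD, gamma for IgG and alpha for IgA. The variable regions of both chains are put together from gene segments when a B cell matures, and the join between the segments differs from clone to clone. Plasma cells, the secreting end stage of the B lineage, hold very large amounts of heavy and light chain mRNA, and canine antibodies carry mostly lambda light chains.

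The probes fell into kinds that their sequences show. The constant-region probes for gamma chains C and D share no long run and read separate parts of the gamma chain family. The pair of alpha probes overlaps within the IGHAC gene (canFam2 chr8:75909141-75909203 and chr8:75909169-75909466, minus strand, each placed over a gap). Capitals in the alpha probes mark the 16 bases they share, after which the allelic variants C and D differ.
gamma chain C: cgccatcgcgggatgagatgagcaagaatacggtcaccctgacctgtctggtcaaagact
gamma chain D: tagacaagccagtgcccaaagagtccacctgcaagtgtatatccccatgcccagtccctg
alpha variant C: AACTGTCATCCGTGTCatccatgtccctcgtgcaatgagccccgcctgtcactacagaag
alpha variant D: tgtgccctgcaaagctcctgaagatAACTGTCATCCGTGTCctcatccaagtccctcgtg

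A pair of probes shows the alternative ends of the mu chain, with the stop codon in capitals. The probe described as heavy chain constant region CH4 (clone V10-4, A_11_P054401, chr8:75969246-75969305, minus strand) lies 533 bases from the nearest mu probe and ends in the stop codon of the secreted form. Probe A_11_P054411, described as a mu variable region and placed nowhere in the genome by the file, reads as the end of the membrane-bound mu chain.
CH4 probe: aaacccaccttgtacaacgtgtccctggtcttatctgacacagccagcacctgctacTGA
A_11_P054411: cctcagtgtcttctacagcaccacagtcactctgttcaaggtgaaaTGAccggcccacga

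The variable-region probes differ in how far they reach into the clone-specific join. Clone AA24 (A_11_P094241, chr8:77037039-77037098, minus strand) matches the genome in a single block and so lies in a germline V segment, as does lambda clone Lv65 (chr26:28531866-28531925, plus strand). The other variable-region probes shown have no place in the genome in the files. Capitals mark the longest run shared with another probe of the same class, which lies in the framework before or after the join.
AA24: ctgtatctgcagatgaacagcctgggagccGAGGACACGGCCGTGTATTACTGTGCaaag
V4-24: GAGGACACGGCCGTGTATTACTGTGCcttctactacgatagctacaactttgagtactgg
Lv6: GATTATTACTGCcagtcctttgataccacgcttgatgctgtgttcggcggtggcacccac
Lv1: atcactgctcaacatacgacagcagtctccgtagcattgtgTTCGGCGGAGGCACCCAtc
Lv71: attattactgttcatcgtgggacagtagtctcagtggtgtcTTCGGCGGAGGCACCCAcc
Lv65: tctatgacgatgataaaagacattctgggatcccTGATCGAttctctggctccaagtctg
Kv75: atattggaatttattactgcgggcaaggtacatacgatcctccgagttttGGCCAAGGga
AA24 and V4-24 share 26 bases, Lv1 and Lv71 share 17, and Kv75 shares no more than 8 with another kappa probe. A probe with a shared framework run can bind RNA of more clones than its own.

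Of the 58 probes, 41 were well above background on at least 3 of the 7 arrays and were kept for the fits, with 32309 probes kept over the whole array. Of the rest, 11 were well above background on no array and 6 on 1 or 2. All 12 constant-region probes were well above background on all 7 arrays, but only 13 of 26 heavy variable, 15 of 17 lambda and 1 of 3 kappa probes were kept. No spot on any array was saturated. The SD between replicate spots of the 50 probes printed 5 times was 0.0857 to 0.127 on the log2 scale, which covers spotting error within an array and not the error between arrays or labelings.

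The tumors differed widely in these chains. The range over the 7 tumors had a median of 2.24 over the kept chain probes, against 0.82 over all kept probes, and it passed 3 in 17 of 41 chain probes where 2.53% of all kept probes passed it. Deleted tumor 1 was the highest of the 7 in 28 of 41 probes (17.2% of all kept probes), and deleted tumor 4 in 5 (18.6% of all kept probes), 4 of them mu and the other the CH4 probe. Deleted tumor 2 was highest in 5 and deleted tumor 3 in 3. No wild-type tumor was the highest in any of the 41, and wild type 1 was the lowest in 26.

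Gamma chains, the heavy chains of IgG, had the widest contrasts among the constant regions. The probe of gamma chain A (A_11_P053591) read 15.93, 15.47, 14.95 and 14.40 in deleted tumors 1 to 4 and 8.46, 11.59 and 10.36 in wild type tumors 1 to 3. The 4 deleted tumors were all above the 3 wild-type tumors and close to each other, whereas the wild-type tumors spread over about 3 log2 units. Deleted tumors averaged 15.19 ± 0.66 (SD, n = 4), against 10.14 ± 1.58 (SD, n = 3) for the wild type, a difference of 5.05 with an SE of 0.73. The adjusted p from limma over all 32309 probes was 0.38.

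Gamma chain C (A_11_P0000025577) read 14.73, 14.23, 10.56 and 13.85 in the deleted and 7.20, 10.96 and 9.91 in the wild-type tumors. Here deleted tumor 3 lay below wild type 2, so the groups overlapped. Relative to each probe's own mean, gamma A exceeded gamma C by 3.00 in deleted tumor 3. This difference lay between -0.94 and -0.12 in the other 6 tumors. Deleted tumor 3 was thus high in the gamma A probe without being high in the gamma C probe. Whether a gamma probe also binds RNA of another gamma chain was not tested.

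Gamma chain D (A_11_P000001229) read 12.26, 10.88, 10.34 and 8.13 in the deleted and 6.47, 6.57 and 6.73 in the wild-type tumors. The groups did not overlap, and the wild-type tumors lay close together near the low end of the scale. Deleted tumor 4 was the lowest of its group in gamma D, and its gamma A deviation stood 2.02 above that of gamma D. The limma differences were 3.99 (SE 1.25) for gamma C and 3.81 (SE 0.87) for gamma D, with adjusted p of 0.585 and 0.495. Deleted tumors 3 and 4 thus changed places between the probes of gamma chains C and D. With 1 array a tumor, the error of a single tumor's value beyond spotting was not measured.

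Alpha chains, the heavy chains of IgA, singled out deleted tumor 1. The variant C probe (A_11_P053836) read 11.79, 10.21, 9.31 and 10.39 in the deleted and 8.76, 8.87 and 9.07 in the wild-type tumors. The groups were apart, with deleted tumor 3 just above wild type 3. The variant D probe (A_11_P0000025297) read 11.40, 9.22, 6.70 and 9.25 against 6.47, 6.56 and 6.99, so that deleted tumor 3 fell among the wild-type tumors. The differences between groups were 1.52 (SE 0.53) and 2.47 (SE 0.98), with limma adjusted p of 0.624 and 0.671.

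Mu chains followed another order. The brightest mu probe (A_11_P054396, chr8:75969838-75969897) read 8.05, 7.93, 7.53 and 9.71 in the deleted and 7.06, 8.69 and 6.95 in the wild-type tumors. Deleted tumor 4 was the highest and wild type 2 came next, above deleted tumors 1 to 3. The other constant-region mu probes, A_11_P054391, A_11_P054386 and the probe of transcript cluster TC70417, had the same first and second tumor. The limma difference of the brightest mu probe was 0.74 (adjusted p = 0.88).

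The probes for the ends of the mu chain parted. The CH4 probe of the secreted form read 11.32, 11.15, 10.50 and 12.86 in the deleted and 8.78, 12.06 and 9.36 in the wild-type tumors, again with deleted tumor 4 first and wild type 2 next. The membrane-end probe A_11_P054411 read 6.89, 6.93, 7.50 and 7.03 against 6.38, 6.37 and 6.50. It was highest in deleted tumor 3, and its groups did not overlap. Relative to each probe's mean, the CH4 probe exceeded the membrane-end probe by 1.77 in deleted tumor 4 and 1.63 in wild type 2, and differed from it by -1.65 in wild type 1. The delta probe (A_11_P054051) of IgD stayed between 6.15 and 6.56 in all 7 tumors, the smallest range of the constant-region probes.

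Set side by side as deviations from each probe's own mean, the isotypes gave each tumor a different profile. Deleted tumor 1 had median deviations of 3.10 for gamma and 2.67 for alpha but 0.09 for mu. Deleted tumor 2 stood at 2.45 for gamma, 0.79 for alpha and 0.10 for mu. In deleted tumor 3 gamma was at 1.58 while alpha was at -0.92 and mu at -0.21. The medians of gamma, alpha and mu were all positive in deleted tumor 4, at 1.38, 0.89 and 1.07. The 3 gamma probes differed in sign in these tumors. They ran from -1.08 to 1.92 in deleted tumor 3 and from -0.64 to 2.22 in deleted tumor 4.

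The gap between the gamma and mu medians was therefore 3.01 in deleted tumor 1, the highest of the 7. It was 0.31 in deleted tumor 4, the lowest of the deleted group. There gamma D, at -0.64, lay below the mu median of 1.07. Likewise gamma C, at -1.08, lay below the mu median of -0.21 in deleted tumor 3. In wild-type tumors gamma lay below mu by this measure, with gaps of -3.50, -1.97 and -1.31. Wild type 2 had mu above its mean (0.54) and gamma below (-1.43), and wild type 1 had the lowest gamma of all, at -4.44. A gap of this size compares how far each class moved from its own mean and says nothing of which class was more abundant.

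**Figure D1:**
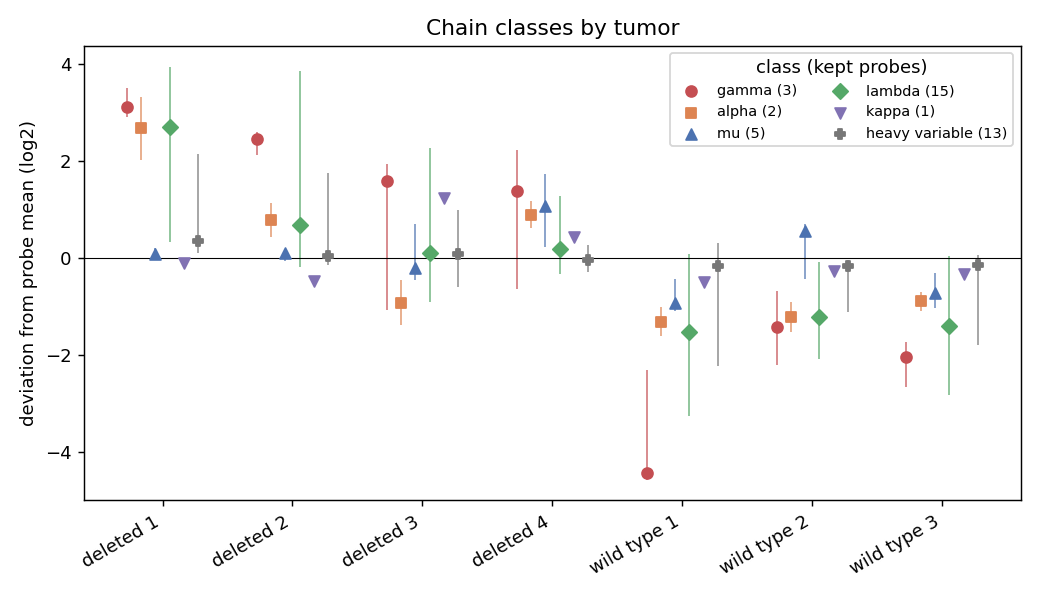
Median deviation from each probe's mean over the 7 tumors (y axis, log2) for 6 chain classes in each tumor (x axis); vertical lines run from the lowest to the highest probe of the class. Gamma reaches 3.10 in deleted tumor 1 and -4.44 in wild type 1, and mu is highest in deleted tumor 4 at 1.07.

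Lambda light chains ranged from nearly flat to as wide as gamma, with a median range of 4.65 and 10 of 15 kept probes below the narrowest gamma probe (5.79). The individual probes disagreed on which tumor was highest. The brightest and most variable, Lv6 (A_11_P054606), read 13.38, 10.70, 11.58 and 10.15 in the deleted and 6.18, 7.50 and 6.62 in the wild-type tumors. The groups did not overlap, and deleted tumor 1 stood alone at the top. The difference was 4.69 (SE 0.77, limma adjusted p = 0.38). At the other end Lv28 ranged over only 0.57 and was well above background on 3 arrays.

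The following lambda probes were picked after their values had been seen, to show the orders that occur. LOC491494 (A_11_P060626, chr26:29240516-29240575, plus strand) read 12.90, 10.76, 11.56 and 9.20 in the deleted tumors and resembled Lv6 in placing deleted tumor 3 above 2. Lv71 read 11.58, 12.64, 8.85 and 8.97, with deleted tumor 2 first and deleted tumor 3 last. Lv50 read 10.55 in deleted tumor 1 and 6.99, 7.16 and 7.58 in the others, so there deleted tumor 1 alone was high. The wild-type tumors read 6.27, 7.51 and 6.85 for LOC491494, 6.10, 6.76 and 6.60 for Lv71 and 5.90, 5.95 and 6.02 for Lv50.

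Over the 10 lambda probes with a range above 3, deleted tumor 2 was above deleted tumor 3 in 6 and below it in 4. Deleted tumor 2 was the highest of all in 4 lambda probes (Lv1, Lv65, Lv71 and Lv21) and deleted tumor 1 in the other 11 kept. Wild type 1 was the lowest tumor in all 10, and wild type 2 was the highest wild-type tumor in 9 of them. Lv21, Lv81, Lv31 and Lv50 were not well above background on every wild-type array. The order of the wild-type tumors in these probes is therefore not fully measured. Lv1 and Lv71, which share the 17-base framework run printed above, both had deleted tumor 2 first. The germline probe Lv65, which shares no run over 7 bases with another lambda probe, had deleted tumor 2 first as well. Whether these probes bound the same RNAs was not tested. The 3 lambda probes with a range under 1 (Lv62, Lv69 and Lv28) moved little in any tumor.

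**Figure D2:**
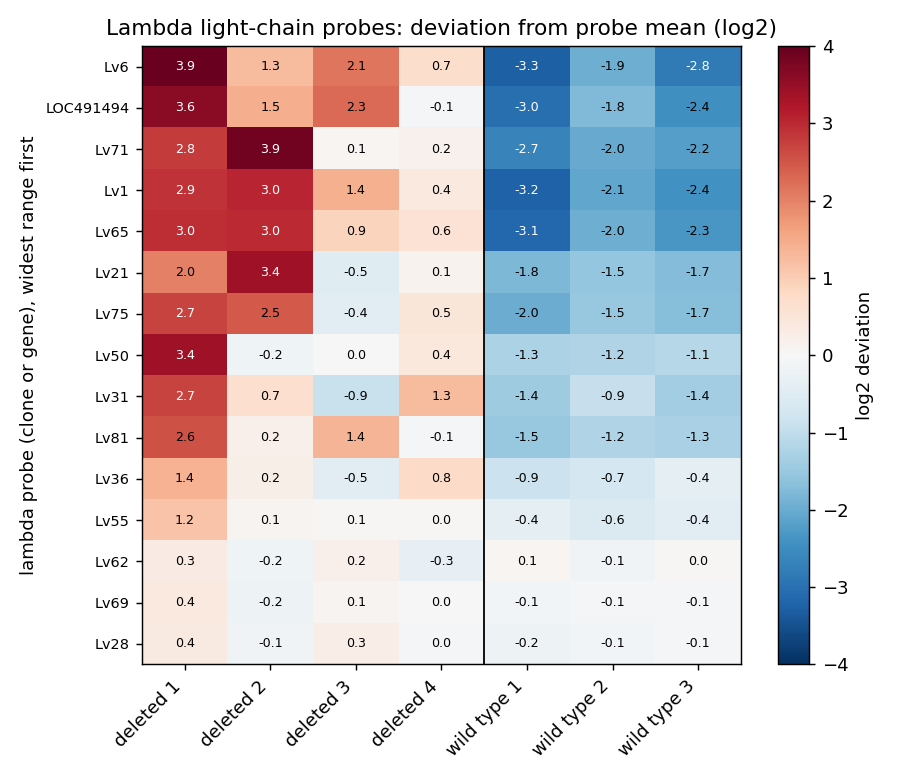
Deviation from the probe's mean over the 7 tumors (color and number, log2) for the 15 kept lambda light-chain probes (rows, widest range first) in each tumor (columns). Deleted tumor 1 is high in nearly all wide-ranging rows, deleted tumor 2 is highest in the rows Lv71, Lv1, Lv65 and Lv21, and the wild-type columns are low in the first 10 rows.

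Kappa light chains were poorly covered. Kv75 (A_11_P054581) read 6.26, 5.90, 7.61 and 6.80 in the deleted and 5.87, 6.11 and 6.04 in the wild-type tumors, and it was well above background on 4 of 7 arrays. It was highest in deleted tumor 3 and next in deleted tumor 4. Kv54 and the probe of cluster TC59867, named from a partial match to another species, were well above background on no array. No kappa constant-region probe was among the members, so kappa rests on a single clone-derived probe.

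Kv75 had no measured level beyond a bound on the arrays where it was not well above background, so lambda and kappa were not compared over all 7 tumors. In deleted tumors 1, 3 and 4, where Kv75 was well above background, its deviations were -0.11, 1.24 and 0.43. The lambda medians there were 2.69, 0.11 and 0.18. The Kv75 deviations are taken from a mean that includes the arrays without a measured level. The lambda median fell short of gamma in every deleted tumor, by values from -1.78 to -0.41, and exceeded it in every wild-type tumor, by 0.22 to 2.92. Only 7 of the 15 kept lambda probes were well above background on all 7 arrays, so this median includes probes without a measured level on some arrays. With only probes above background on all arrays, the median difference between groups was 4.22 for lambda and 3.99 for gamma. No order of lambda and gamma is therefore read from these gaps.

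Among the 26 heavy variable-region probes, AA24 had the widest range and the highest mean. It read 12.32, 11.93, 11.17 and 10.44 in the deleted and 7.96, 9.06 and 8.39 in the wild-type tumors. The groups did not overlap, and the order of the tumors was that of gamma chain A. Its difference was 3.00 (SE 0.49, limma adjusted p = 0.38). V4-24, which shares the 26-base framework run with AA24, read 9.25, 8.35, 7.56 and 7.03 against 6.25, 6.30 and 6.44, also without overlap.

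VDJ52, the other heavy variable probe with a mean above 8, read 9.13, 7.98, 7.47 and 7.84 in the deleted and 8.36, 8.00 and 7.68 in the wild-type tumors, with overlapping groups and a difference of 0.09 (limma adjusted p = 0.98). V4-24 and VDJ52 were named after their values were seen. The remaining heavy variable probes were mostly near background. Of the 13 kept, 9 had a range under 1, and V4-1 had the smallest, at 0.23. G62 is placed in a single block on another chromosome (chr3:35163932-35163991, minus strand). It was well above background in all 4 deleted tumors and in no wild-type tumor, with a deleted mean of 6.78, at least 1.79-fold above the lowest measurable signal of the wild-type arrays. The other kept probes with no wild-type array above background were V4-3, V4-12, V4-27 and V6-4. V4-12 and V6-4, above background in all 4 deleted tumors, were at least 1.31-fold higher by the same bound. V4-3 and V4-27 were above background in only 3 deleted tumors, so no bound is given for them. All 5 probes passed the filter through the deleted tumors alone, so their direction was fixed by the filter. The bound sets the deleted mean against the higher of the probe's own signal and the lowest signal well above background on each wild-type array.

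The deleted mean was higher in all 41 kept chain probes, as it was in 50.9% of all kept probes, with a median difference of 0.85 against 0.005 over all kept probes. Beside this, limma called 0 of the 41 at an unadjusted p below 0.05 and an adjusted p below 0.1, as it called 0 (0%) of the 32309 kept probes, the lowest adjusted p of which was 0.101. At an unadjusted p below 0.05 alone, 22 of the 41 were higher in deleted tumors, where 3.17% of all kept probes were, and the methods' equal-variance test gave 18 and called 0. The deleted tumors were all above the wild-type tumors in 23 of the 41, and in 3.93% of all kept probes. Among probes well above background on all 7 arrays, these were 14 of 25 chain probes and 4.07% of probes. Of the 41, 5 were above background in no wild-type tumor and so passed the filter through the deleted tumors alone; of the other 36, all had a higher deleted mean, 20 an unadjusted p below 0.05 and 19 no overlap. Since the chains were picked with these values known, nothing further is read from these counts.

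Limma also called 0 of the kept chain probes, and 0 of 32303 probes with an estimate, for an interaction of DLG2 status with the gender label. Only 1 wild-type tumor had the label MC, so that arm was assumed to vary like the others. At this test 1 chain probe had an unadjusted p below 0.05. Wild type 1 and 2 resembled each other more than any other pair (Pearson r = 0.987 across probes, against 0.935 to 0.965, a description across genes that are not independent). Only 64 kept probes differed by more than 2 between these arrays, and 3 of them were chain probes: gamma A, gamma C and CH4. Slide and feature-extraction session were shared by some arrays of both groups. The session is not a label of the samples. It was set by splitting the arrays at long gaps between their extraction times. The shared slide and the first session held wild type 2 as their only wild-type tumor. The second session held deleted tumor 1, on which the chains were selected, as its only deleted tumor. Each difference below thus rests on 1 tumor in 1 of the groups, and session and tumor cannot be told apart in it. The median difference of the gamma probes was 3.62 within the shared slide, 3.22 within the first session and 6.18 within the second. For lambda these were 1.99, 1.70 and 4.09, and for alpha 1.15, 1.47 and 3.77. For mu the direction turned: -0.60 within the slide and -0.27 within the first session, where wild type 2 was the only wild-type tumor, and 1.05 within the second.

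The J chain, which links IgM and IgA into polymers and is made by plasma cells, is covered by 4 probes named only in their descriptions (chr13:62901873-62902551 overall), so they were not among the 58. Probe A_11_P205798 read 13.77, 12.35, 11.07 and 12.26 in the deleted and 9.64, 10.74 and 10.96 in the wild-type tumors. All 4 J chain probes placed deleted tumor 1 first and wild type 1 last. Their differences were 1.91 to 2.22, with limma adjusted p of 0.495 to 0.6. A probe for a gene similar to immunoglobulin lambda-like polypeptide 1 (LOC607364, chr26:30664117-30664176) read 10.54, 13.30, 9.90 and 9.31 against 7.27, 8.26 and 7.69, with deleted tumor 2 first, as in Lv71. The probe of LOC491454, similar to a lambda variable region, had group means of 7.81 and 7.92 (difference -0.11), and that of LOC606869, similar to a heavy-chain variable region, 6.84 and 6.01 (difference 0.84).

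Lists of plasma cell and B cell genes that are not chains had smaller median differences than the chains, which were selected on their high signal. Some plasma cell genes were bright in every tumor. SSR4, named after its values were seen, read 13.78 to 14.67. Which cells the listed genes read in these tumors was not tested. Of the 19 plasma cell genes listed, 11 had a probe, 10 were kept and 0 were called. MZB1, IRF4, TNFRSF17, DERL3, TXNDC5, CRELD2, TNFRSF13B and SLAMF7 had no probe. The kept genes had a median difference of 0.21. The deleted mean was higher in 8 of 10, as it was in 50.9% of all kept probes. The median deviation of the kept plasma cell genes was 0.47 in deleted tumor 1, 0.09, 0.08 and -0.29 in deleted tumors 2 to 4, and -0.29 to -0.16 in wild-type tumors. The widest ranges were those of CD38 (2.74, highest in deleted tumor 2), ELL2 (2.65), an elongation factor for secretory mRNA, and HERPUD1 (1.71), a gene of the protein-folding response. Of the B cell list 12 of 20 genes were kept and 0 called, with a median difference of 0.06. The B cell receptor components CD79A and CD79B ranged over 0.34 and 0.29, and PAX5, CD22, BLK and CR2 had a probe but were not kept. At an unadjusted p below 0.05, 1 gene of the list was higher in deleted tumors, where 3.17% of all kept probes were. It was MS4A1 (CD20), named after its values were seen, with a difference of 0.27 and no overlap (limma adjusted p = 0.68). MS4A1 was well above background on 3 arrays, all of deleted tumors, so its direction was fixed by the filter. The widest ranges of the list were those of CD37 (3.55), BTK (3.51) and CD40 (2.99). In bulk tissue, fewer cells of a type and less RNA per cell cannot be told apart.

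**Figure D3:**
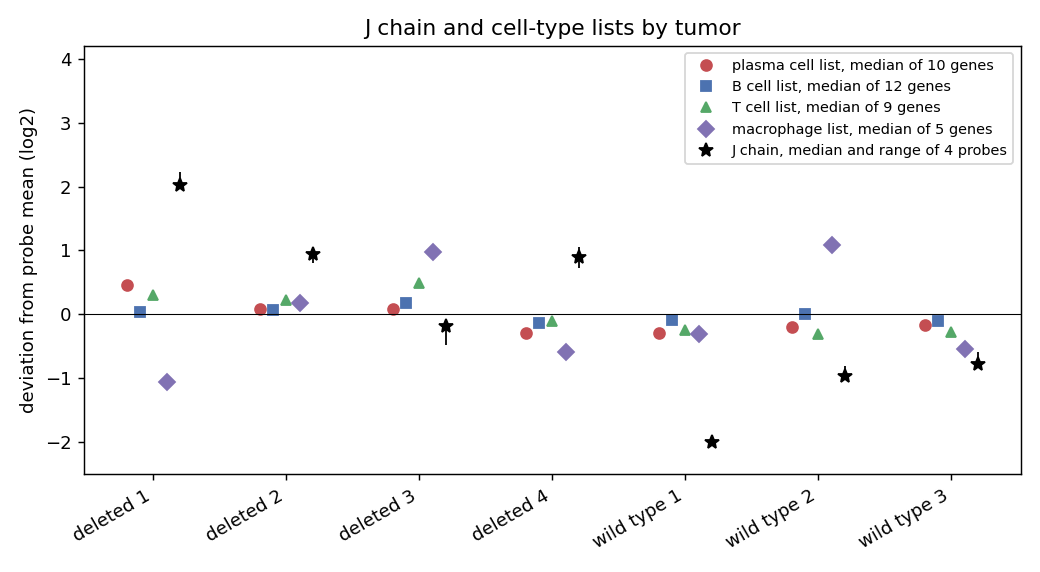
Median deviation from the probe mean (y axis, log2) of the J chain probes (stars, with the range of 4 probes) and of the plasma cell, B cell, T cell and macrophage lists in each tumor (x axis). The J chain runs from near 2 in deleted tumor 1 to near -2 in wild type 1, while the B cell list stays between -0.14 and 0.17.

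The other lists, also chosen with earlier results of these data known, gave 0 called genes each. T cell genes, 9 of 10 kept, had a median difference of 0.42. At an unadjusted p below 0.05, 5 of 9 were higher in deleted tumors, where 3.17% of all kept probes were. CD3D, a chain of the T cell receptor complex, read 9.98, 9.32, 9.98 and 8.41 against 7.11, 7.53 and 6.86 (difference 2.26, SE 0.41, limma adjusted p = 0.397), followed in range by CD3G (1.94) and LCK (1.36). Macrophage genes, 5 of 6 kept, had a median deviation of -1.06 in deleted tumor 1, 0.98 in deleted tumor 3 and 1.08 in wild type 2, an order unlike that of gamma, with CD163 (3.81), AIF1 (3.09) and CD68 (2.66) the widest in range. Among antibody receptors and transporters, 7 of 11 kept, the median difference was -0.17, with FCGR1A (3.30), FCGRT (2.47) and FCER1A (2.31) the widest. FCGRT and PIGR, the latter named after its values were seen, were lower in deleted tumors at an unadjusted p below 0.05. Their differences were -1.39 and -0.86, with limma adjusted p of 0.637 and 0.65. The share of all kept probes lower at this p was not counted.

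For B-lineage survival and homing 7 of 10 genes were kept, with a median difference of 0.64. IL6, a plasma cell growth factor, had the widest range (3.92, highest in deleted tumor 2), then CXCR4 (2.01) and CXCL12 (1.67). At an unadjusted p below 0.05, 1 gene of this list was higher in deleted tumors, where 3.17% of all kept probes were, and 1 was lower. Both are named here after their values were seen. CXCL13, a B cell attracting chemokine, was higher by 0.70 with no overlap (limma adjusted p = 0.394). CCR10 had a difference of -0.64 (limma adjusted p = 0.637). Bone marrow granulocyte genes, 4 of 7 kept, had a median of -0.08, with MPO (2.56), CTSG (0.91) and LTF (0.56) the widest, and no erythroid gene was kept. Osteoblast genes, 5 of 9 kept, had a median of -0.33, with BGLAP (4.52), ALPL (4.01) and COL1A1 (1.86) the widest. COL1A1, a main collagen of bone, was between 14.10 and 15.96 in all 7 tumors. The part of any of these cell types in the chain levels was not tested.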

How the data were processed

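RNA of 7 canine osteosarcomas (4 DLG2 deleted, 3 wild type) was measured on 1-color Agilent arrays. The deposited files hold spot intensity as written by Agilent Feature Extraction 10.7.3.1, per the submitters' processing notes; the authors' own normalization (RMA with batch correction, per the methods) is not in these values, and the batch used is not given in the sources used here. Probe positions are those of the files (canFam2). The intensity was background-corrected (normexp, offset 50), quantile normalized on log2 and averaged over replicate spots; 144 spot-outlier values were left out. Local backgrounds marked as outliers were replaced by the array's median, since 4 spots on the array of deleted tumor 1 had backgrounds up to 58105 that shifted the normexp fit (mean -658.25, and -4.68 after replacement). This was chosen after seeing the data. Probes well above background on at least 3 arrays were kept. R 4.3.3 with limma 3.58.1 compared the groups without covariates, with Benjamini-Hochberg adjustment over all kept probes; calls needed an unadjusted p below 0.05 and an adjusted p below 0.1. The fit was checked on simulated data. Array precision is limited by the number of tumors.

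Probes named were, per class, the brightest and those with the largest and smallest range, every probe of a class of up to 3, and per gene list the 3 with the largest range. Genes without a symbol in the files were named through RefSeq tables (UU_Cfam_GSD_1.0), which gave 1964 probes a symbol. The members and lists were chosen with earlier results of these data known. Alternatives covered scaling, background, filter, left-out tumors, the close pair of wild-type arrays, slide, session, gender label, age, the methods' test and the class summary. The list of rearrangement and class-switching genes is not reported here.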

Additional observations from a re-analysis of the deposited data

Results flagged for a closer look

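The median deviation of all kept chain probes set deleted tumor 1 apart within its group: it was 1.06, against 0.14, 0.05 and 0.18 in deleted tumors 2 to 4, and the gap to the next tumor was 0.878 of the group's range. The chains were selected on their high signal in this tumor, so the gap restates that choice and is no independent evidence. It was the only such gap among 33 sets of values examined over the 4 deleted tumors.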

How the results depend on the processing

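The chain probes called stayed at 0 in all 22 alternatives, while over all probes the calls went from 0 to 10 with the processed signal at the 75th percentile, to 4 with the processed signal and quantiles, with normexp at the 75th percentile and with trend and robust options, to 1 without background correction, and to 0 to 46 on leaving out 1 tumor (46 without wild type 3). Chain probes at an unadjusted p below 0.05 were 22 and fell to 14 with probes above background on all arrays (fewer probes tested), 10 with the slide as a block and 12 with age as a term, and were 15 to 22 without 1 tumor. The median difference over chain probes (0.848) was 2.752 and 2.91 with the processed signal (percentile, quantile), 1.291 without background correction, 1.52 with probes above background on all arrays, 0.374 without a filter and 1.631 as a mean, and 0.747 to 1.152 without 1 tumor. For lambda (2.354) it was 5.269 and 5.304 with the processed signal, 4.225 with probes above background on all arrays and, in an alternative added after seeing the data, 1.342 with the marked backgrounds as deposited; without 1 tumor it was 1.837 to 2.793. Kappa (0.633) moved to 2.43 and 2.501 with the processed signal and was 0.059 without a filter, and mu (0.672) was 0.342 with backgrounds as deposited. The lead of deleted tumor 1 over deleted tumors 2 to 4 in lambda (2.367) was 1.782 with backgrounds as deposited, 1.638 with probes above background on all arrays and 1.548 as a mean. Without 1 tumor gamma was 3.524 to 4.917, alpha 1.391 to 2.588, mu 0.375 to 1.152 (0.375 without deleted tumor 4, 1.152 without wild type 2) and kappa 0.311 to 0.88 (0.311 without deleted tumor 3). The direction held in each of these class values; the cause of the moves was not tested, except where fewer probes were tested. With normexp at the 75th percentile the median difference over all kept probes was 0.113, against 0.005 in the main setting. No paired analysis was possible because the tumor numbers only name different dogs. Chain signals near background limit kappa and most heavy variable probes.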
